A study of Homo sapiens with 16 samples.

Results

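The MYCN locus was described as the open chromatin regions that overlap a 400 kb window of chromosome 2, chr2:15900000-16300000 (hg19), around the MYCN gene body at about chr2:16080683-16087129. The rule for members uses position alone. In experiment 6086, 22 of 56949 regions lay in the window, and in experiment 6211 19 of 40844 did. Every member lay wholly inside the window and passed the filter on low counts. No hg19 gene annotation was used here, so a region is described by its distance from the gene start, and no region is assigned to a gene by its signal.

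ATAC-seq, which uses a transposase to cut and tag open DNA, was performed on Rh30, a cell line of alveolar rhabdomyosarcoma that carries the PAX3-FOXO1 fusion. All 16 libraries came from Rh30 cells in which PAX3-FOXO1 was joined to FKBP, the tag through which dTAG47 directs a protein to degradation. Cells received 500 nM dTAG47 for 0.5, 1 or 2 h in experiment 6211 and for 2, 4 or 24 h in experiment 6086, and each experiment had its own DMSO cells, with 2 libraries in every group. No untagged cells given dTAG47 were analysed here, so effects of losing the fusion and other effects of dTAG47 cannot be told apart, and the sources used here do not say whether the tagged line is 1 clone.

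MYCN encodes N-MYC, a basic helix-loop-helix leucine zipper transcription factor that pairs with MAX, binds E-box sequences and drives growth and proliferation genes. It is expressed in embryonic progenitors, including those of the nervous system, and is amplified in neuroblastoma and in some alveolar rhabdomyosarcomas. MYCN is known to be controlled by distal enhancers and to be activated by PAX3-FOXO1 in alveolar rhabdomyosarcoma. By gene order in GRCh38, the lncRNA genes MYCNUT and MYCNOS come before MYCN, with MYCNOS overlapping it on the opposite strand, and the pseudogene RN7SL104P and the lncRNA gene GACAT3 come after it. ATAC-seq reads carry no strand of transcription, so a region at the MYCN start cannot be given to MYCN or to MYCNOS, and no transcript level was measured.

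The promoter is shown because one region of each experiment covers the gene start and is the nearest measure of MYCN itself. The RefSeq sequence of GRCh38.p14, chr2:15940300-15940599 on the plus strand, runs from 250 bases before to 50 bases after the annotated start. Capitals mark GC boxes (GGGCGG, or CCGCCC where the box is on the minus strand) and an E2F motif (TTTGGCGC).
MYCN promoter: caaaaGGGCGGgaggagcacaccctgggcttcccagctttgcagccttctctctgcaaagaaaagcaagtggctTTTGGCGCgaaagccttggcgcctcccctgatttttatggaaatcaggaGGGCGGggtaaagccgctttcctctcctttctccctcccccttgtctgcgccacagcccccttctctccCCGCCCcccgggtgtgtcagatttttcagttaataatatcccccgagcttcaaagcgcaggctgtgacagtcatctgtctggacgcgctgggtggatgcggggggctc
The motif GGGCGG occurred 3 times on both strands together, and 45.0% of 35116 RefSeq promoters of the same length held it at least once. TTTGGCGC occurred once, at 176 to 169 bases before the start, and 0.652% of promoters held it. The E-box CANNTG occurred 2 times, against 68.7% of promoters with at least 1. No match was found in this window for CACGTG (7.26% of promoters), GTCACG (9.02%), TTTCCCGC (1.63%), TATAAA (11.5%), CCAAT (34.6%), TGACGTCA (1.85%) or the palindromic paired homeodomain motif (0.365%). CANNTG includes CACGTG, and the other motifs were searched on both strands as spelled. The promoter's GC content of 58.7% and its 14 CpG dinucleotides equalled the medians over all promoters, 58.7% and 14. A match describes letters and not a bound site.

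Regions were dense around MYCN. The window held 55.0 regions per Mb in experiment 6086, against 31.5 per Mb in the 1 Mb on either side, and 47.5 against 20.5 per Mb in experiment 6211. In experiment 6086, 10 regions lay 20.6 to 129 kb upstream of the start, 1 covered the start, 2 lay inside the gene body and 9 lay 41.9 to 131.9 kb downstream. The counts in experiment 6211 were 9, 1, 2 and 7. Of the 22 regions of experiment 6086, 18 overlapped a region of experiment 6211, and all 19 regions of experiment 6211 overlapped one of experiment 6086. The 4 without a counterpart lay 54.1 and 48.9 kb upstream and 117.8 and 131.9 kb downstream. Widths ran from 112 to 1767 bp (median 381 bp) in experiment 6086 and were 401 bp for each member in experiment 6211, so levels were never compared between the experiments.

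Libraries held 9934147 to 18275976 reads in regions in experiment 6211 and 18038062 to 31308682 in experiment 6086. Levels are given in CPM, the usual depth-scaled read count, here relative to the reads in regions after TMM scaling, which assumes that most regions did not change. Replicate libraries had Spearman correlations of 0.96 to 0.976 across all regions in experiment 6211 and 0.987 to 0.992 in experiment 6086, values that describe agreement across regions, which are not replicates. Nothing in the labels makes the replicates separate cultures, and the spread behind each p-value is that between libraries only. That spread is drawn largely from all regions together, with 4 residual degrees of freedom for each region. Prior degrees of freedom were 29.9 in experiment 6086 and 19.6 in experiment 6211. A region was called when its p from the quasi-likelihood test of edgeR, adjusted by Benjamini-Hochberg over all regions of its experiment, was under 0.05.

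A few distal regions held much of the accessible signal of the locus. In experiment 6086 the 3 regions with the highest DMSO CPM lay 97.9 kb downstream, 50.7 kb upstream and 25.4 kb upstream, and together they held 43.9 to 46.6% of the window's reads in each library. Their share in experiment 6211, where the top 3 were the overlapping regions 50.6 kb upstream, 98.2 kb downstream and 25.8 kb upstream, was 42.0 to 45.3%. Per kb of region in DMSO cells of experiment 6086, the level was 73.4 CPM 50.7 kb upstream and 70.0 CPM 97.9 kb downstream, in the 97th and 96.2nd percentile of all regions. The region at the gene start had 33.8 CPM per kb, in the 50.8th percentile. By DMSO CPM without regard to width, this region, 1640 bp wide, lay at percentile 95. On that measure the regions 50.7 kb upstream and 97.9 kb downstream lay at percentiles 99.2 and 99.6. With equal widths in experiment 6211, the start region lay in the 83.1st percentile of DMSO CPM and the regions 50.6 kb upstream and 98.2 kb downstream both in the 99.6th.

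Total accessibility of the window stayed within a narrow range in each experiment. Summed over the 19 regions of experiment 6211, libraries A and B had 697 and 668 CPM in DMSO cells, 682 and 668 CPM after 0.5 h, 684 and 673 CPM after 1 h and 666 and 669 CPM after 2 h. Summed over the 22 regions of experiment 6086, they had 687 and 654 CPM in DMSO cells, 645 and 653 CPM after 2 h, 663 and 640.1 CPM after 4 h and 704 and 693 CPM after 24 h. Both 24 h libraries were above both DMSO libraries and both 2 h libraries below them, while the 4 h libraries overlapped the DMSO libraries. The log2 of the mean sum over DMSO was -0.02, -0.01 and -0.03 at 0.5, 1 and 2 h in experiment 6211 and -0.05, -0.04 and 0.06 at 2, 4 and 24 h in experiment 6086.

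**Figure D1:**
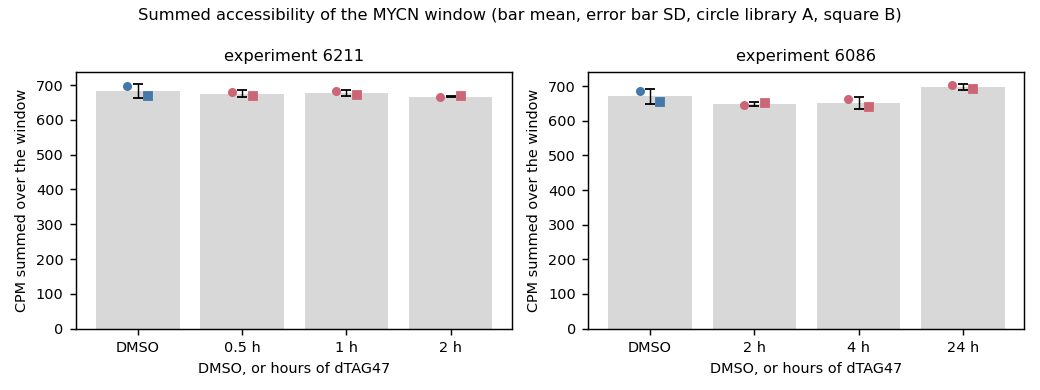
CPM summed over the regions of the MYCN window, by time of dTAG47 (horizontal axis) and experiment (panels); bars are means of 2 libraries, error bars SD, circles library A and squares library B. In experiment 6086 the 24 h libraries, at 704 and 693 CPM, stand above the DMSO libraries, at 687 and 654 CPM.

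The region over the gene start did not pass the threshold before 24 h. In experiment 6086 it spanned chr2:16079829-16081468, from 854 bp before to 785 bp after the start, and libraries A and B had 55.6 and 55.3 CPM in DMSO cells, 56.7 and 53.1 CPM after 2 h, 56.0 and 55.2 CPM after 4 h and 64.3 and 59.6 CPM after 24 h. The 2 h libraries lay on either side of the DMSO libraries, and both 24 h libraries were above all 6 others. Log2 changes were -0.01 at 2 h (95% interval -0.13 to 0.10) and 0.00 at 4 h (-0.11 to 0.12). The 24 h change was a log2 of 0.16 (SE 0.05, adjusted p = 0.023), and the step over 4 h was also 0.16 (adjusted p = 0.033). The 24 h call was lost with DESeq2 and when DMSO library B or 24 h library A was left out, with adjusted p up to 0.29, and the step was lost with DESeq2 and without either 4 h library or 24 h library A, with adjusted p up to 0.36. Without 24 h library A both log2 changes were 0.10.

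In experiment 6211 the start region, chr2:16080421-16080821, had 37.7 and 34.8 CPM in DMSO cells, 37.0 and 35.6 CPM after 0.5 h, 35.8 and 33.9 CPM after 1 h and 36.5 and 29.7 CPM after 2 h. Every dTAG47 group overlapped the DMSO libraries. Its log2 changes were -0.00, -0.06 and -0.13, with 95% intervals of -0.21 to 0.21, -0.27 to 0.14 and -0.34 to 0.08 and adjusted p of 1, 0.80 and 0.52.

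Inside the gene body, about 3 kb past the start, accessibility was called lower at 1 and 2 h in experiment 6211. The region chr2:16083883-16084283 of experiment 6211 had 33.7 and 30.4 CPM in DMSO cells, 28.3 and 24.6 CPM after 0.5 h, 23.8 and 16.5 CPM after 1 h and 25.4 and 21.2 CPM after 2 h. All 6 dTAG47 libraries were below both DMSO libraries, and the 1 h libraries differed most from each other. Its log2 change was -0.28 at 0.5 h (SE 0.13, adjusted p = 0.74), -0.69 at 1 h (SE 0.13, adjusted p = 0.004) and -0.46 at 2 h (SE 0.14, adjusted p = 0.043). Without 1 h library B the 1 h log2 change was -0.43 and its call was lost (adjusted p = 0.24), and without 1 h library A it was -0.97. The 2 h call was lost with DESeq2, without DMSO library A and without 2 h library B (adjusted p up to 0.37).

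The wider region of experiment 6086 over the same stretch, chr2:16083165-16084543, had 53.8 and 48.7 CPM in DMSO cells, 46.6 and 47.5 CPM after 2 h, 47.8 and 45.0 CPM after 4 h and 46.8 and 45.7 CPM after 24 h. All 6 dTAG47 libraries were below the same 2 DMSO libraries. Taking each time alone, 22.7%, 22.2% and 32.4% of all regions had both libraries below both DMSO libraries at 2, 4 and 24 h. Log2 changes of -0.12, -0.14 and -0.14 had adjusted p of 0.33, 0.21 and 0.063 and were not called, except without DMSO library B, when 4 h and 24 h were (adjusted p = 0.038 and 0.014). The remaining region of the gene body, chr2:16081637-16082257, kept between 12.6 and 14.5 CPM in all 8 libraries of experiment 6086 and was not called at any time. Its counterpart in experiment 6211, chr2:16081542-16081942, ranged from 13.3 to 18.2 CPM and was not called either.

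Downstream, the widest region of the window fell within 2 h and stayed low. This region, 97.9 kb downstream at chr2:16177747-16179513, had 129.8 and 118 CPM in DMSO cells, 99.0 and 102 CPM after 2 h, 99.1 and 93.8 CPM after 4 h and 99.96 and 100.1 CPM after 24 h. Every dTAG47 library was below both DMSO libraries, and the 6 dTAG47 libraries lay between 93.8 and 102 CPM. Log2 changes were -0.29 at 2 h (SE 0.05, adjusted p = 7.4e-05), -0.36 at 4 h (adjusted p = 1.9e-06) and -0.30 at 24 h (adjusted p = 6.1e-06). The steps of -0.06 from 2 to 4 h (adjusted p = 0.78) and 0.05 from 4 to 24 h (adjusted p = 0.5) were not called. The region's share of the window's reads was 18.9 and 17.97% in DMSO cells, 15.4 and 15.7% after 2 h, 14.9 and 14.65% after 4 h and 14.2 and 14.45% after 24 h. Its 3 calls against DMSO held in each of the 9 alternatives run for each comparison.

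In experiment 6211 the overlapping region 98.2 kb downstream, chr2:16178670-16179070, had 122 and 112 CPM in DMSO cells, 108 and 106 CPM after 0.5 h, 107 and 104 CPM after 1 h and 101 and 103 CPM after 2 h. All 6 dTAG47 libraries were below the same 2 DMSO libraries from 0.5 h. Taking each time alone, 19.2%, 21.3% and 23.8% of all regions had both libraries below both DMSO libraries at 0.5, 1 and 2 h. Log2 changes of -0.13, -0.15 and -0.20 did not pass the threshold (adjusted p = 0.78, 0.28 and 0.096), and the 2 h change passed only without DMSO library B (adjusted p = 0.035).

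The next region downstream was called lower at 24 h. At 110.7 kb, chr2:16191060-16191679 had 34.8 and 31.1 CPM in DMSO cells, 29.7 and 31.1 CPM after 2 h, 30.6 and 27.1 CPM after 4 h and 25.8 and 25.2 CPM after 24 h. Both libraries of each time were below both DMSO libraries, and the 24 h libraries were the lowest of the 8. Log2 changes were -0.11 at 2 h (adjusted p = 0.49), -0.19 at 4 h (adjusted p = 0.14, or 0.029 without DMSO library B) and -0.36 at 24 h (SE 0.07, adjusted p = 1.2e-04), and the 24 h call held in all 9 alternatives. The step from 4 to 24 h was a log2 of -0.18 (adjusted p = 0.075). Its partner in experiment 6211, 110.8 kb downstream at chr2:16191283-16191683, had 48.6 and 39.2 CPM in DMSO cells, 43.2 and 43.8 CPM after 0.5 h, 40.9 and 38.1 CPM after 1 h and 40.3 and 35.8 CPM after 2 h. Each of those dTAG47 groups overlapped the DMSO range, and none was called, except 2 h without DMSO library B (adjusted p = 0.036).

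A region 41.9 kb downstream, chr2:16122402-16122708, had 11.5 CPM in both DMSO libraries, 10.6 and 11.9 CPM after 2 h, 10.2 and 11.6 CPM after 4 h and 9.11 and 9.73 CPM after 24 h. Only the 24 h libraries were both below DMSO, and the log2 change was -0.29 (SE 0.10, adjusted p = 0.023). That call was lost with DESeq2, without either DMSO library and without 24 h library A, with adjusted p up to 0.17.

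**Figure D2:**
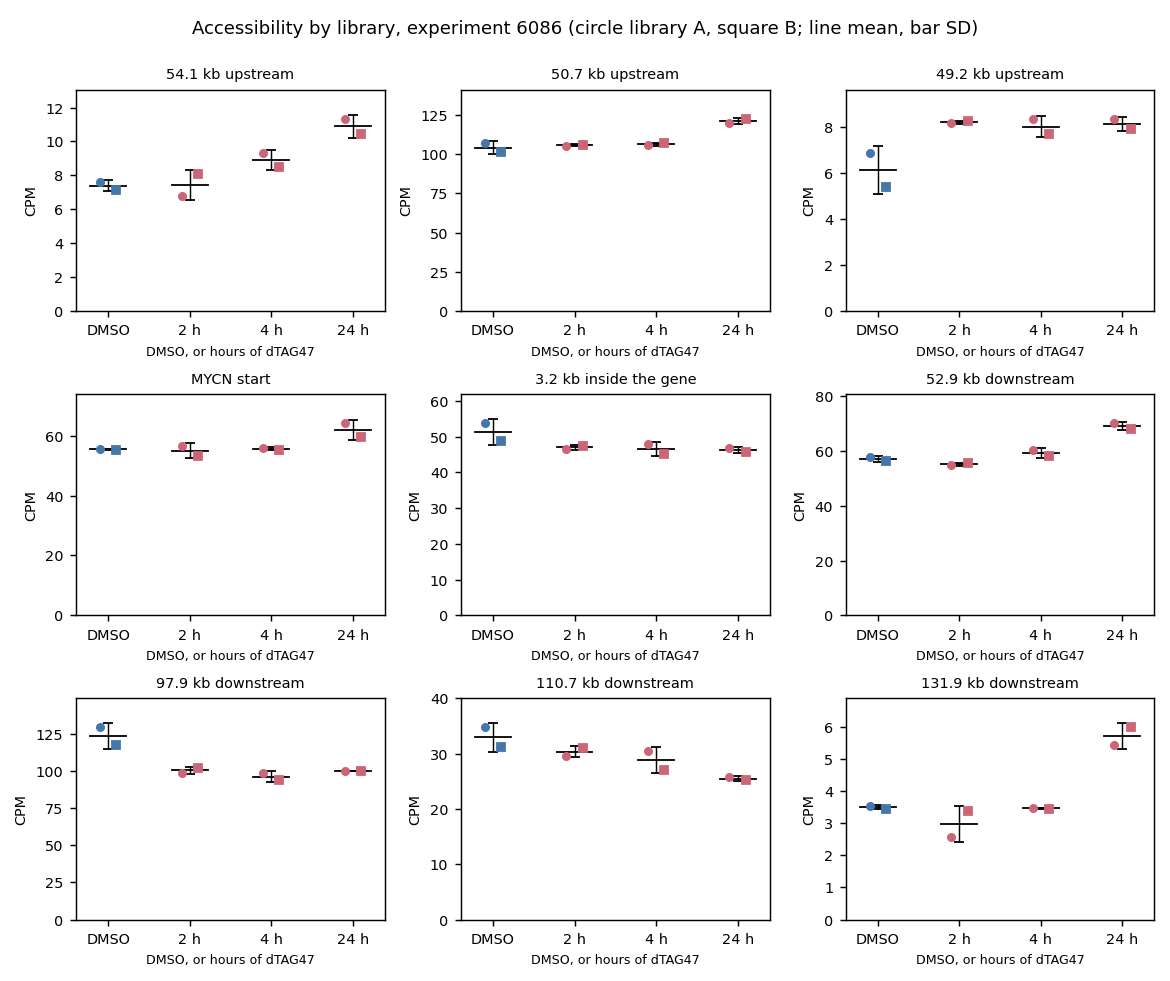
CPM by library in experiment 6086 for 9 regions of the window (panels), against DMSO or hours of dTAG47; circles are library A, squares library B, lines the mean and bars the SD of 2 libraries. The region 97.9 kb downstream drops to 99.0 and 102 CPM at 2 h, against 129.8 and 118 CPM in DMSO cells, while the start region is highest at 24 h, at 64.3 and 59.6 CPM.

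Other downstream regions rose at 24 h. The largest log2 rise was in the outermost one, 131.9 kb downstream at chr2:16212540-16212723, a low region at percentile 6.32 of DMSO CPM. It had 3.53 and 3.44 CPM in DMSO cells, 2.57 and 3.38 CPM after 2 h, 3.47 and 3.44 CPM after 4 h and 5.43 and 5.99 CPM after 24 h. Both 24 h libraries stood above all 6 others, and the 2 h libraries were the lowest and overlapped none of the DMSO values. The 24 h change was a log2 of 0.71 over DMSO (SE 0.14, adjusted p = 1.5e-04) and 0.73 over 4 h (adjusted p = 1.8e-04). The region at 117.8 kb, chr2:16198349-16198540, was also low, at percentile 9.15 of DMSO CPM. It had 4.37 and 3.72 CPM in DMSO cells, 3.86 and 5.11 CPM after 2 h, 5.94 and 5.92 CPM after 4 h and 6.28 and 6.11 CPM after 24 h. It was above DMSO from 4 h, with log2 changes of 0.57 at 4 h (adjusted p = 0.011) and 0.63 at 24 h (SE 0.14, adjusted p = 5.2e-04). Only its 4 h call was lost in alternatives, namely with DESeq2, without DMSO library B and without either 4 h library (adjusted p up to 0.17).

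Nearer the gene, 2 further regions were called higher at 24 h and are named after their values were seen. The region 52.9 kb downstream, chr2:16133116-16134025, had 57.8 and 56.2 CPM in DMSO cells, 54.8 and 55.7 CPM after 2 h, 60.5 and 58.2 CPM after 4 h and 70.4 and 68.2 CPM after 24 h. It was slightly below DMSO at 2 h and above it at 24 h, when the log2 change was 0.28 (SE 0.05, adjusted p = 4.9e-05). The region 56.7 kb downstream, chr2:16137240-16137446, had 6.77 and 6.11 CPM after 24 h, against 4.82 and 4.77 CPM in DMSO cells, a log2 change of 0.43 (SE 0.13, adjusted p = 0.011) that was lost with DESeq2 and when DMSO library B or 24 h library A was left out (adjusted p up to 0.12). At 78.7 kb, chr2:16159296-16159515 was not called against DMSO at any time, but its 24 h libraries, at 9.80 and 9.89 CPM, were above its 4 h libraries, at 8.42 and 7.79 CPM (log2 0.28, adjusted p = 0.044). That step was lost in 6 alternatives, DESeq2 and the fits without any 1 of the 4 h or 24 h libraries among them. The partner in experiment 6211, chr2:16159202-16159602, had 14.0 and 13.0 CPM in DMSO cells and 12.3 and 7.99 CPM after 2 h. Its log2 changes at 0.5, 1 and 2 h were -0.25, -0.28 and -0.40. None was called with all libraries in the fit (adjusted p = 0.85, 0.39 and 0.17).

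Upstream, the changes called were all rises. The region 50.7 kb upstream, chr2:16029309-16030727, one of the 3 most accessible of the window, had 107 and 101 CPM in DMSO cells, 105 and 106 CPM after 2 h, 105 and 107 CPM after 4 h and 119.5 and 122 CPM after 24 h. Only the 24 h libraries left the DMSO range, and the log2 change was 0.22 (SE 0.05, adjusted p = 2.3e-04), with 0.19 over 4 h (adjusted p = 0.0019). A smaller neighbour 54.1 kb upstream, chr2:16026389-16026704, had 7.62 and 7.16 CPM in DMSO cells, 6.80 and 8.06 CPM after 2 h, 9.33 and 8.51 CPM after 4 h and 11.3 and 10.4 CPM after 24 h. Its levels were in order of time from 2 h, and the 24 h change was a log2 of 0.56 (SE 0.11, adjusted p = 8.8e-05). Both 24 h calls against DMSO held in all 9 alternatives. The step from 4 to 24 h at 54.1 kb, a log2 of 0.29 (adjusted p = 0.038), was lost with DESeq2 and without any 1 of the 4 h or 24 h libraries, with adjusted p up to 0.28.

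Another neighbour, 49.2 kb upstream at chr2:16031333-16031578, was higher at all 3 times of experiment 6086, with 6.89 and 5.40 CPM in DMSO cells, 8.17 and 8.27 CPM after 2 h, 8.37 and 7.71 CPM after 4 h and 8.38 and 7.95 CPM after 24 h. The DMSO libraries differed from each other by more than any other pair. Log2 changes were 0.45 (adjusted p = 0.026), 0.41 (adjusted p = 0.037) and 0.44 (adjusted p = 0.0045), and each call was lost with DESeq2 and without DMSO library B, when the log2 changes were 0.25, 0.22 and 0.25. The 2 h and 4 h calls were lost in 5 of 9 alternatives, also with only the compared groups in the fit and without either treated library of that time. At 25.4 kb upstream, chr2:16054552-16056009 had 93.5 and 89.9 CPM after 24 h, against 83.3 and 81.1 CPM in DMSO cells (log2 0.16, SE 0.05, adjusted p = 0.0092), a call lost without 24 h library A (adjusted p = 0.12). The other 6 upstream regions of experiment 6086, at 129, 90.6, 48.9, 28.7, 28.2 and 20.6 kb, and the one 44.0 kb downstream were not called at any time with all libraries in the fit. The region at 129 kb had a log2 change of 0.32 at 2 h (adjusted p = 0.09). Leaving out DMSO library B made it a higher call at 2 h and at 24 h. Its partner in experiment 6211 had a log2 change of 0.38 at 2 h (adjusted p = 0.12), not called.

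In experiment 6211 the upstream call was 20.6 kb from the start, chr2:16059857-16060257, with 34.4 and 30.02 CPM in DMSO cells, 32.2 and 33.8 CPM after 0.5 h, 36.3 and 33.2 CPM after 1 h and 39.7 and 42.2 CPM after 2 h. Only the 2 h libraries were both above DMSO (log2 0.34, SE 0.10, adjusted p = 0.035). The call was lost in 5 alternatives, namely DESeq2, a fit of the compared groups alone, and the fits that left out 1 of the 2 h libraries or DMSO library B (adjusted p up to 0.26). The partner region of experiment 6086, chr2:16059756-16060486, had 41.0 and 41.4 CPM after 2 h, against 38.4 and 35.5 CPM in DMSO cells, a log2 change of 0.16 that was not called. The most accessible region upstream, chr2:16029880-16030280 at 50.6 kb, had 119 and 121 CPM in DMSO cells, 117 and 123 CPM after 0.5 h, 131 and 136 CPM after 1 h and 117 and 130.5 CPM after 2 h, and was not called. Nor was the region 25.8 kb upstream, chr2:16054691-16055091, which ranged from 62.4 to 69.6 CPM over the 8 libraries. The partner of the region 49.2 kb upstream, chr2:16031253-16031653, had 11.4 and 9.32 CPM in DMSO cells and 11.6 and 14.9 CPM after 2 h. Its log2 changes at 0.5, 1 and 2 h were 0.17, 0.20 and 0.33, and none was called (adjusted p = 0.90, 0.54 and 0.23).

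**Figure D3:**
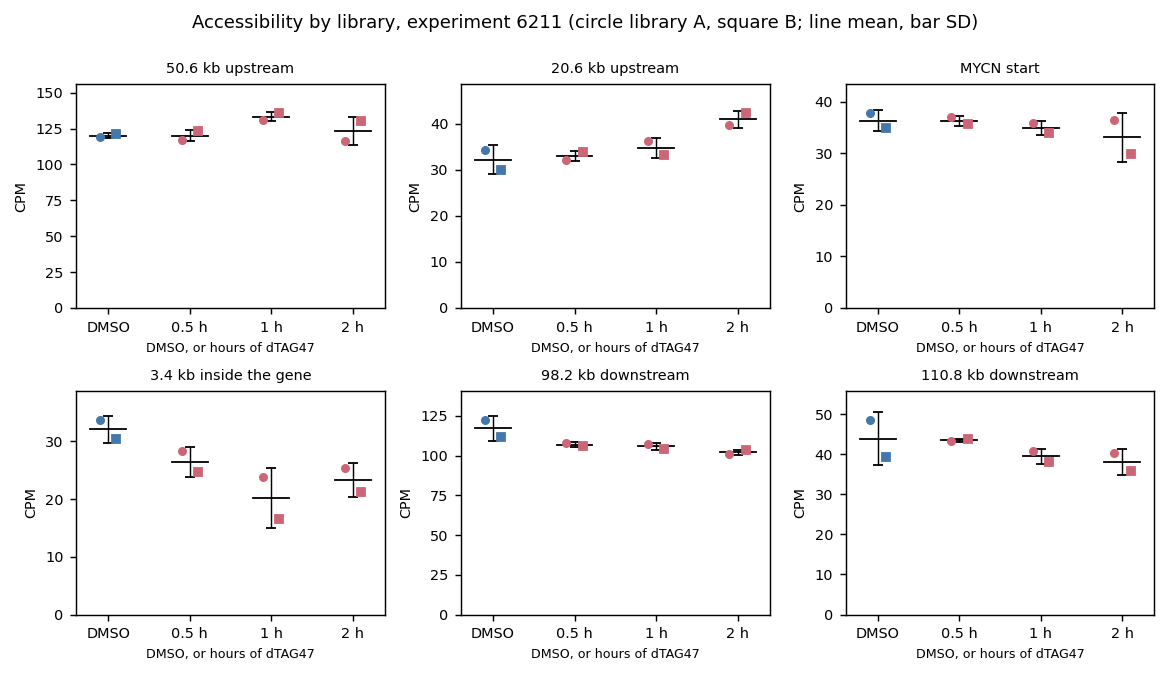
CPM by library in experiment 6211 for 6 regions of the window (panels), against DMSO or hours of dTAG47; circles are library A, squares library B, lines the mean and bars the SD of 2 libraries. The region 3.4 kb inside the gene falls to 23.8 and 16.5 CPM at 1 h, against 33.7 and 30.4 CPM in DMSO cells, and the start region stays between 29.7 and 37.7 CPM.

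Counted over the window, early changes were few. At 0.5 h, edgeR called 0 of 19 regions lower and 0 higher, where 0.00735% and 0% of all regions were called, with 1 member at an unadjusted p under 0.05 and 0 called by DESeq2. At 1 h, 1 of 19 was called lower and 0 higher, against 2.47% and 0.22% of all regions. At 2 h in experiment 6211, 1 was called lower and 1 higher, against 4.92% and 1.97%. At 2 h in experiment 6086, 1 of 22 was called lower and 1 higher, against 4.25% and 0.978%, and at 4 h 1 lower and 2 higher, against 5.44% and 1.75%. A single region is a share of 5.26% in experiment 6211 and 4.55% in experiment 6086, so these shares are coarse beside the background. Without 1 h library B the 1 h count was 0. For 2 h in experiment 6211, the count was 1 without DMSO library A and 0 without 2 h library B. In experiment 6086, leaving out either 2 h library gave 1 call at 2 h, and leaving out either 4 h library gave 1 call at 4 h. Without DMSO library B, the split was 3 lower and 0 higher both at 2 h in experiment 6211 and at 4 h in experiment 6086.

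At 24 h more of the window was called, mostly higher. Of 22 regions, 3 were lower and 9 higher (13.6% and 40.9%), where 18.6% of all regions were called lower and 13.6% higher. Among the 9 higher, the 3 largest log2 changes were 0.56 at 54.1 kb upstream, 0.63 at 117.8 kb downstream and 0.71 at 131.9 kb downstream. None of these 3 regions overlapped a region of the other experiment, which had no 24 h libraries. Whether they entered the consensus regions because of the 24 h libraries was not tested. Both 24 h libraries were above both DMSO libraries in 15 regions (68.2%, against 29.5% of all regions) and below in 4 (18.2%, against 32.4%). The median log2 change was 0.16 in the window, with a range of -0.36 to 0.71, against a median of -0.00 over all regions. In the 1 Mb on either side of the window, 15 of 63 regions were lower and 14 higher, with a median of -0.03. The 10 upstream regions all had positive log2 changes, 4 of them called, where 28129 of all 56945 regions were positive. Of the 9 downstream regions 6 were positive, with 3 called lower and 4 called higher. This contrast between the sides is a description and was not tested. The 24 h libraries were also the deepest, with 30091821 and 31308682 reads in regions, against 18038062 and 25803905 in the DMSO libraries. The part of depth in the counts was not tested. Scaling by library size alone or by median-ratio size factors also gave 3 lower and 9 higher, but neither changes the number of reads per library. DESeq2 gave 2 lower and 6 higher in the window. It also called fewer of all regions, 7125 lower and 4198 higher, against 10611 and 7742 with edgeR.

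**Figure D4:**
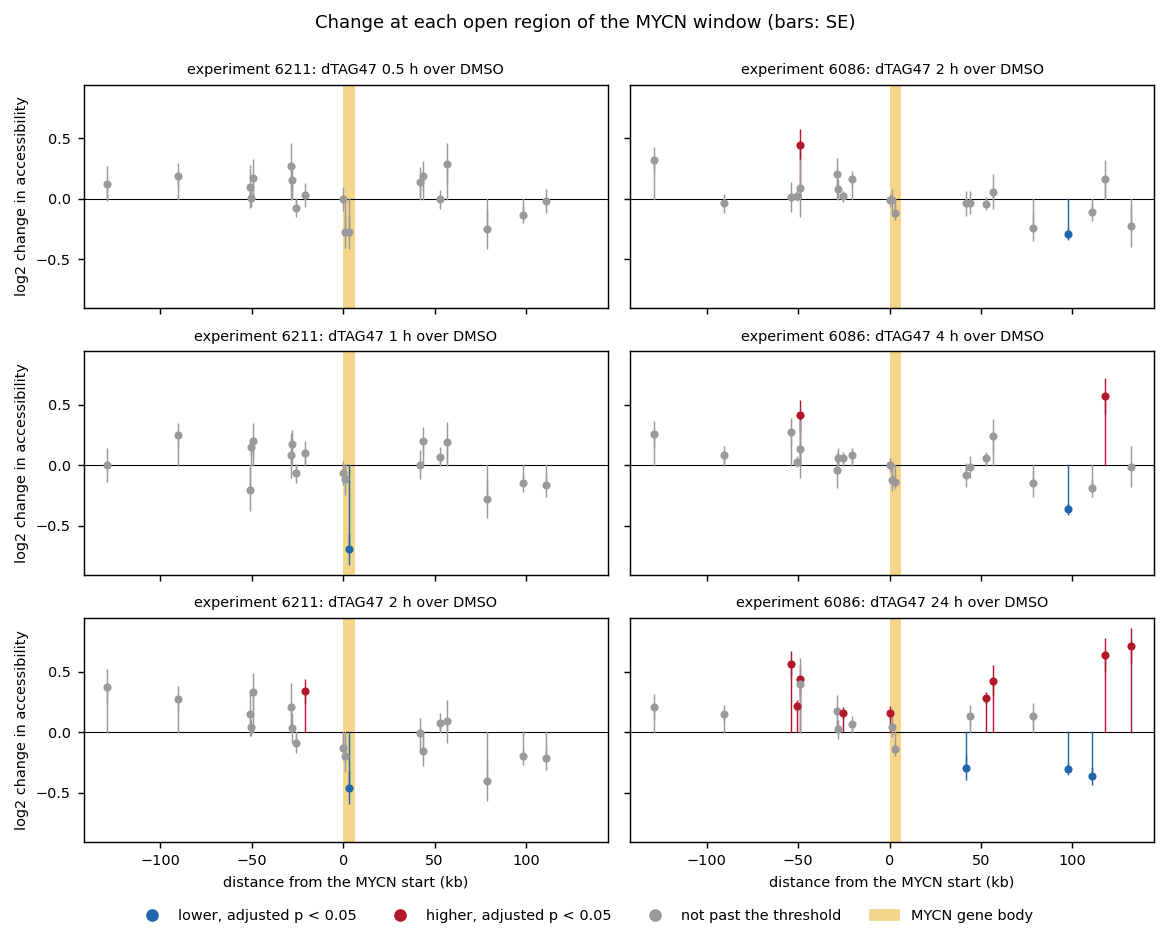
Log2 change of dTAG47 over DMSO for each region of the MYCN window against distance from the gene start in kb, by comparison (panels); bars are the SE, blue points were called lower, red points called higher and grey points not called, and the shaded band is the gene body. At 24 h the points range from -0.36 to 0.71 and every upstream point is above 0, while the region 97.9 kb downstream is below 0 at 2, 4 and 24 h.

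Of the steps between times that were tested, those from 0.5 to 2 h, from 1 to 2 h and from 2 to 4 h gave no call in the window, and the step from 4 to 24 h gave 6. The step from 0.5 to 1 h was not tested. From 0.5 to 2 h in experiment 6211, edgeR called 0 of 19 regions lower and 0 higher, against 1.28% and 0.147% of all regions. An unadjusted p under 0.05 was found for 2 of them, and DESeq2 called 0. From 1 to 2 h, a step added after the data were seen, 0 were lower and 0 higher, against 0.316% and 0.326%. From 2 to 4 h in experiment 6086, 0 of 22 were lower and 0 higher, against 0.0773% and 0.00351%, with 2 at an unadjusted p under 0.05 and 0 called by DESeq2. From 4 to 24 h, 0 were lower and 6 higher, against 13.9% and 8.73%, and 3 were higher without 4 h library A or without 24 h library A. From 2 to 24 h, also added after the data were seen, 2 were lower and 9 higher, against 17.6% and 12.8%. The later 2 steps share the 24 h libraries and are not independent of each other.

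The 2 h effect could be compared between the experiments, which have separate DMSO libraries, at 10 pairs of regions that overlapped by at least 50% of each. No pair was called different by the edgeR interaction test (0 of 10, against 0% of 29639 pairs), and 1 had an unadjusted p under 0.05. That pair lay 90.6 kb upstream, with a log2 change of -0.04 in experiment 6086 against 0.27 in experiment 6211, a difference of -0.30 (95% interval -0.56 to -0.04, adjusted p = 0.9). For the pair 20.6 kb upstream the difference was -0.17 (95% interval -0.40 to 0.07), and for the pair 110.7 kb downstream it was 0.11 (-0.17 to 0.38). The intervals do not show that the effects were alike. The regions at the start, in the gene body and 97.9 kb downstream had no pair at this overlap.

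In the authors' deposited table, at an adjusted p under 0.05, 1 window region was lower and 0 higher at 1 h, and none was called at 0.5 or 2 h in experiment 6211. For experiment 6086 the authors' deposited table gave 1 lower and 0 higher at 2 h and at 4 h, and 2 lower and 6 higher at 24 h. The share of all regions called in the authors' own tests is not given here, so these counts stand without a background. For the region 97.9 kb downstream, the authors' deposited table gave log2 changes of -0.29, -0.36 and -0.30 with adjusted p of 7.3e-04, 3.5e-06 and 5e-05. For the gene start at 24 h the authors' deposited table gave 0.16 with an adjusted p of 0.1.

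By Euclidean distance between log2 CPM profiles over the 8 libraries of experiment 6086, each taken relative to DMSO, the regions outside the window most like the start region were chr19:53606562-53607285 (distance 0.0754), chr11:27237899-27238353 (0.0880) and chr17:41392485-41393087 (0.0922). Their log2 changes at 24 h were 0.13, 0.16 and 0.15. For the region 110.7 kb downstream, which had the lowest 24 h change, they were chr17:1861955-1862093 (0.0548), chr2:39024159-39024841 (0.0690) and chr18:11849817-11850316 (0.0930), with 24 h log2 changes of -0.35, -0.39 and -0.37. These neighbours were picked for likeness and are a description.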

How the data were processed

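ATAC-seq reads were counted by the authors over consensus regions. Values in the 2 deposited tables are raw counts per region, as whole numbers whose totals differ among the 16 libraries. The builds listed in the submitters' processing notes are hg19 and dm3, and coordinates were taken as hg19, the human one. Of tools, the same notes list deepTools, DESeq2, DiffBind, Genrich 0.6.1, Bowtie2 and Trimmomatic 0.32, with no order or role. The sources used here do not say whether reads were shifted for the transposase or how duplicates were treated. The 6 deposited comparison tables hold log2 fold changes and p-values of the authors' own tests, per the file headers, and are quoted only where named.

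Columns were assigned to groups by experiment, treatment and time, and 0 per-library columns lay outside these groups. Letters A and B only name libraries, since the labels' replicate numbers are not linked to them. Chi-square per degree of freedom between replicate counts was 1.34 to 2.66, so no pair was within sampling noise.

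Tests on the counts used edgeR 4.0.16 under R 4.3.3 (TMM, filterByExpr, quasi-likelihood fit and test), fitting the 8 libraries of each experiment together. In 6086, 56945 of 56949 regions passed the filter, and in 6211 all 40844 did. Residual degrees of freedom were 4, and prior degrees of freedom 29.9 in 6086 and 19.6 in 6211. The SE is the size of the log2 change divided by the square root of F, and 95% intervals use the fit's degrees of freedom. Scripts were tested on simulated data. Alternatives were DESeq2 1.42.0, median-ratio factors, library size only, no filter, the library letter as a block, the compared groups alone and each library left out. Pairs of regions between experiments needed 50% reciprocal overlap.

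Named regions were those within 5 kb of the gene body, the 3 with the highest DMSO CPM in each table, up to 3 with the lowest and 3 with the highest log2 change among calls of each comparison, and their partners in the other table. Likeness was limited to regions whose mean count reached 30, with a prior count of 2. The window, these rules and the motif list were chosen with earlier results of these data known. Gene lists were not used, because no hg19 annotation was used here, and sequences came from RefSeq on GRCh38.p14 without conversion of coordinates.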

Additional observations from a re-analysis of the deposited data

Results flagged for a closer look

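Regions are listed here because the change over DMSO at 24 h differed from the change at an earlier time of experiment 6086 by edgeR's test of the difference itself, with Benjamini-Hochberg adjustment over all regions. Both times share the same DMSO libraries, so the difference equals the step between the times. Between 4 and 24 h, the log2 difference was 0.29 at 54.1 kb upstream (adjusted p = 0.038), 0.19 at 50.7 kb upstream, 0.16 at the gene start, 0.22 at 52.9 kb downstream, 0.28 at 78.7 kb downstream and 0.73 at 131.9 kb downstream.

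Between 2 and 24 h, a step added after the data were seen, 9 regions moved up and 2 moved down. Upstream, the log2 difference was 0.55 at 54.1 kb (adjusted p = 1.1e-04), 0.20 at 50.7 kb (adjusted p = 8.6e-04) and 0.14 at 25.4 kb (adjusted p = 0.021), and it was 0.17 at the gene start (adjusted p = 0.013). Downstream, it was 0.33 at 52.9 kb (adjusted p = 6.3e-06), 0.37 at 56.7 kb (adjusted p = 0.024), 0.37 at 78.7 kb (adjusted p = 0.0055), 0.47 at 117.8 kb (adjusted p = 0.0067) and 0.94 at 131.9 kb (adjusted p = 4.1e-06). The regions that moved down were 41.9 kb downstream, by a log2 of -0.25 (adjusted p = 0.049), and 110.7 kb downstream, by a log2 of -0.25 (adjusted p = 0.0063). Of these, the regions at 52.9, 78.7 and 131.9 kb lay above DMSO at 24 h and below it at 2 h in both libraries of each time.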

How the results depend on the processing

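No call reversed its direction under any alternative. Of 26 calls of single regions, 12 held in all 9 alternatives run for each and 14 were lost in at least 1; DESeq2 kept 14. With DESeq2 in place of edgeR, they were 0 in place of 2 at 2 h in experiment 6211, 1 in place of 2 at 2 h and 1 in place of 3 at 4 h in experiment 6086, 8 in place of 12 at 24 h (2 lower and 6 higher), and 3 in place of 6 from 4 to 24 h. Over all regions at 24 h, DESeq2 called 7125 lower and 4198 higher, against 10611 and 7742 with edgeR. With only the compared groups in the fit, the calls in the window were 1 in place of 2 at 2 h in both experiments. They were 2 in place of 3 at 4 h and 1 in place of 0 from 0.5 to 2 h. Leaving out each library in turn gave 0 to 1 at 1 h, 0 to 3 at 2 h in experiment 6211, 1 to 2 at 2 h, 1 to 3 at 4 h and 8 to 12 at 24 h in experiment 6086, and 3 to 4 in place of 6 from 4 to 24 h. Without DMSO library B the calls at 2 h in experiment 6211 and at 4 h in experiment 6086 were 3 lower and 0 higher. The counts of 0 or 1 came without 1 h library B, without DMSO library A or 2 h library B in experiment 6211, and without either 2 h or either 4 h library in experiment 6086, and those of 3 from 4 to 24 h without 4 h library A or 24 h library A. In these fits the lone library left in a group is assumed to vary like the others, and the cause of the other shifts was not tested. The step taken from 2 h in place of 4 h gave 11 calls in place of 6. With the library letter as a replicate block, 25 of the 26 calls were kept, and the counts stayed at 2, 3 and 12 at 2, 4 and 24 h in experiment 6086 and were 5 in place of 6 from 4 to 24 h. Libraries with the same letter had correlations of deviations between -0.137 and 0.154 in experiment 6086 and -0.0522 and 0.211 in experiment 6211. Such correlations cannot show whether libraries with the same letter were prepared together. Regions under 10 CPM rest on few reads per library, and changes of low regions carry wide errors.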
